A study of Homo sapiens with 12 samples.

Results

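The mRNAs of 7 chromatin regulators (BRD2, CBX3, HDAC2, KDM5C, MLL5, SMARCA5 and SET) and of 3 histones made outside the replication-dependent gene clusters (H1FX, H2AFX and H3F3B) were followed in a map of RNA crosslinked to the translation initiation factor eIF3. They were taken by gene name from a table of crosslinked clusters, and all 10 were found, out of 479 genes in the table. Together they had 33 of the 1477 clusters and 1042 reads. The cells were 293T, a line derived from human embryonic kidney cells by transformation. Their chromatin was not itself measured, and each value below is a number of reads or of T-to-C conversions on an mRNA.

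All 4 groups were the same cells under the same treatment and differed in the eIF3 subunit that was sequenced, eIF3a, eIF3b, eIF3d or eIF3g. Cells were given 4-thiouridine at 100 µM for 14 h, a uridine analog that ultraviolet light joins to bound protein and that is then read as C. They were crosslinked at 0.15 J per square cm, and every group was precipitated with 1 antibody, raised against eIF3b, before the RNA was trimmed with RNase T1 and complexes were taken from a denaturing gel. Each group had 3 labelled replicates, replicate 1 with a random barcode at the 5′ end, and no library without crosslinking or with a control antibody was analysed here.

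Eukaryotic mRNAs are read by a small ribosomal subunit that is recruited near the 5′ end by initiation factors, of which eIF3 is the largest, and that scans the 5′ untranslated region (UTR) to the start codon. Chromatin regulators are usually sorted into proteins that read, write or erase marks on histone tails, remodellers that slide nucleosomes with the energy of ATP, and chaperones that carry histones. Replacement histones are mostly made throughout the cell cycle from polyadenylated mRNAs. Replication-dependent histones are made mainly during DNA synthesis from mRNAs that end in a stem-loop.

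A cluster is a stretch of overlapping reads with T-to-C conversions, and the authors' table gives 1 pooled value for each cluster and subunit. No value below therefore has a spread between libraries, and no difference between subunits was tested. Intervals on read numbers are exact Poisson intervals at 95%, and they cover counting error only, since reads from a PCR library are not independent molecules. Statements that intervals overlap or do not overlap compare raw reads, not scaled for depth, and are not tests between subunits. The clustered reads came to 62405 in eIF3g, 24150 in eIF3d, 19187 in eIF3b and 15132 in eIF3a, with medians of 19 to 23 reads per cluster, and no cluster had fewer than 8 reads. A gene that is missing from a list can thus have had reads there, and absence from a list is not a level of 0. The amount of each mRNA in the cells was not measured, so more mRNA and more crosslinking per mRNA cannot be told apart. None of 10 markers of other cell types had a cluster, which a list of crosslinked sites does not turn into a test of the cell type.

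Clusters of these mRNAs lay almost entirely upstream of the coding sequence. Of the 33 clusters, 31 were annotated in a 5′ UTR and 2, those of SET, at a start codon, and none was in a coding exon, an intron or a 3′ UTR. By gene, 9 of 10 had a 5′ UTR cluster, where 69.1% of all genes and 67.8% of all clusters of the table did. In 9 of the 10 genes the clusters of all subunits that listed the gene overlapped and formed 1 locus. CBX3 had 2 loci, and 11.9% of all genes had more than 1. The clusters were 20 to 49 nucleotides (nt) long with a median of 26, counting both end positions, and the median over the table was 25.

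All 10 genes were listed for eIF3d, 9 for eIF3g, 8 for eIF3a and 4 for eIF3b. Of all genes in the table, 74.3% were listed for eIF3d, 73.3% for eIF3g, 68.5% for eIF3a and 55.1% for eIF3b. CBX3, HDAC2, SMARCA5 and H1FX were listed for all 4 subunits, 4 of 10 where the table had 33.6%. BRD2, MLL5 and H3F3B were listed for all but eIF3b, H2AFX for eIF3a and eIF3d, and KDM5C and SET for eIF3d and eIF3g. Of the 7 genes listed for eIF3a, eIF3d and eIF3g, 4 were also listed for eIF3b, where 74.5% of the 216 such genes of the table were. Clusters were then limited to those at or above their subunit's median reads. In the eIF3d list 6 of the 10 genes remained, as did 181 of all 356 genes listed for eIF3d. In the lists of all 4 subunits 2 of the 4 genes remained, as did 68 of all 161 such genes.

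**Figure D1:**
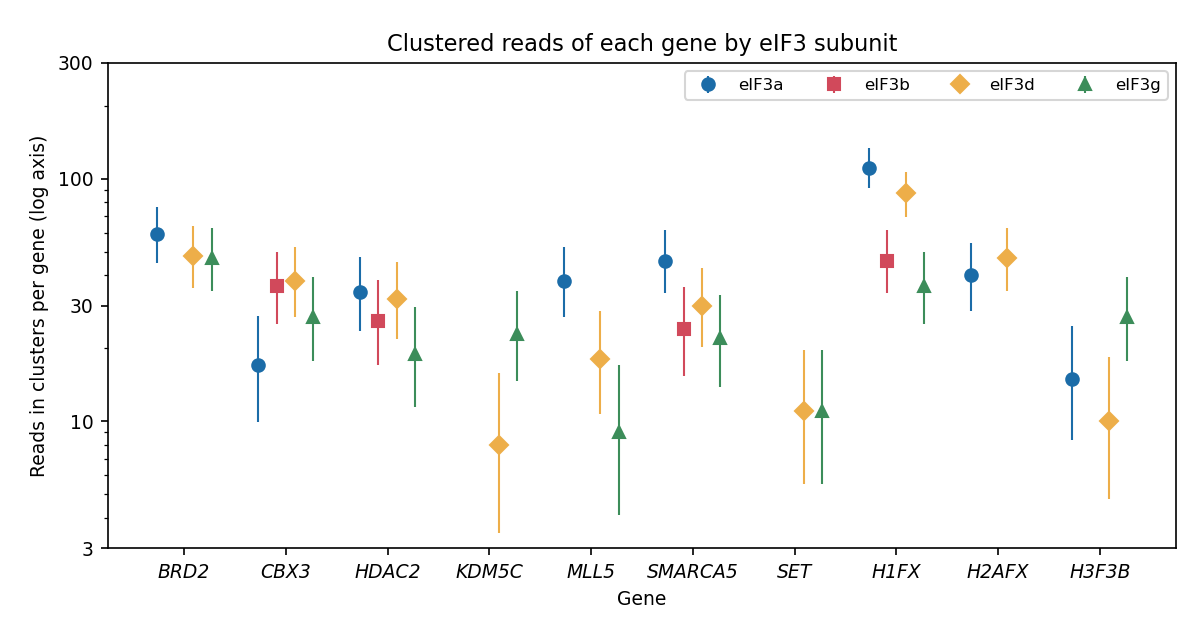
Reads in clusters of each gene (log axis) for eIF3a, eIF3b, eIF3d and eIF3g, with exact 95% Poisson intervals that cover counting error only; a missing point means that the gene is not in that subunit's list. H1FX stands highest in eIF3a with 111 reads and in eIF3d with 87, and KDM5C, H3F3B and SET lie lowest in eIF3d with 8, 10 and 11 reads.

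The readers come first. BRD2, a bromodomain protein of the BET family that binds acetylated histone tails, had 59 reads in eIF3a (interval 44.9 to 76.1), 48 in eIF3d (35.4 to 63.6), and 47 (34.5 to 62.5) in eIF3g, and was not in the eIF3b list. The 3 numbers lay within each other's counting intervals. They placed the BRD2 cluster at rank 54 of 375 in eIF3a, 75 of 403 in eIF3d and 81 of 401 in eIF3g. With 154 summed reads, BRD2 was at rank 2 among the 55 genes listed for eIF3a, eIF3d and eIF3g without eIF3b, whose median was 64. In that group MLL5 was at rank 27 with 65 summed reads and H3F3B at rank 34 with 52. The BRD2 cluster had the same limits in all 3 lists, on hg19 chromosome 6 from 32940062 to 32940083, plus strand.

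CBX3 encodes HP1 gamma, a chromodomain protein that binds methylated histone H3. Its mRNA carried 2 clusters in the 5′ UTR, on hg19 chromosome 7, plus strand. The upstream locus ran from 26241570 to 26241606 and was listed for eIF3b with 28 reads, eIF3d with 12 and eIF3g with 27. The downstream locus ran from 26241956 to 26241975 with the same limits in each list, and had 17 reads in eIF3a, 8 in eIF3b and 26 in eIF3d. The loci were 349 nt apart on the genome, a distance that may include an intron. No locus of CBX3 held all 4 subunits, since eIF3a was listed only downstream and eIF3g only upstream. In eIF3b the upstream cluster had more reads, with intervals of 18.6 to 40.5 against 3.45 to 15.8 that did not overlap. In eIF3d the downstream one had more, 17.0 to 38.1 against 6.2 to 21.0, and these intervals overlapped. Summed over both loci CBX3 had 38 reads in eIF3d, 36 in eIF3b, 27 in eIF3g and 17 in eIF3a.

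The table held 1 other gene within 10000 nt of any of these mRNAs. HNRNPA2B1, an RNA-binding protein gene, had a 5′ UTR cluster on the minus strand 1317 nt from the CBX3 clusters, at 26240231 to 26240252. It had 59 reads in eIF3a, 38 in eIF3d, 27 in eIF3g and 14 in eIF3b. The clusters of the pair are on opposite strands and share no position.

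The erasers were HDAC2 and KDM5C. HDAC2, a class I histone deacetylase, had 34 reads in eIF3a (interval 23.5 to 47.5), 32 in eIF3d (21.9 to 45.2), 26 in eIF3b (17.0 to 38.1) and 19 in eIF3g (11.4 to 29.7). All 4 intervals overlapped. Its clusters shared the position 114292204 on hg19 chromosome 6, minus strand, and reached 114292227 in eIF3g and 114292230 in eIF3b and eIF3d. KDM5C, a demethylase of histone H3 encoded on the X chromosome, had 23 reads in eIF3g (14.6 to 34.5) and 8 in eIF3d (3.45 to 15.8). The number 8 is the smallest that any cluster of the table had, and put KDM5C at rank 395 of the 403 clusters of eIF3d, against rank 180 of 401 in eIF3g. As a share of clustered reads KDM5C had 0.0369% in eIF3g and 0.0331% in eIF3d. This near equality depends on totals that include noncoding RNA and EIF3A. Without them the totals were 23192 in eIF3g and 15246 in eIF3d, and by these the eIF3g share was higher. The KDM5C clusters lay on hg19 chromosome X, minus strand, between 53254194 and 53254215, shifted by 2 nt between the lists.

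MLL5, now named KMT2E, belongs to the MLL family by its SET and PHD domains. It had 38 reads in eIF3a (interval 26.9 to 52.2), 18 in eIF3d (10.7 to 28.4), and 9 (4.12 to 17.1) in eIF3g, and no cluster in the eIF3b list. The eIF3a and eIF3g intervals did not overlap. The cluster fell at rank 100 of 375 in eIF3a, 250 of 403 in eIF3d and 371 of 401 in eIF3g. On hg19 chromosome 7, plus strand, it started at 104654793 in eIF3a, at 104654790 in eIF3d and at 104654778 in eIF3g, where it also ended 8 nt sooner than in the other lists, at 104654809.

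SMARCA5, the ATPase of ISWI remodelling complexes, had 46 reads in eIF3a (interval 33.7 to 61.4), 30 in eIF3d (20.2 to 42.8), 24 in eIF3b (15.4 to 35.7) and 22 in eIF3g (13.8 to 33.3). The eIF3a number was the highest, and its interval did not reach that of eIF3g. The clusters began at 144434735 in every list, on hg19 chromosome 4, plus strand, and ended at 144434762 or, in eIF3d, at 144434761. SET, a histone chaperone that also inhibits protein phosphatase 2A, had 11 reads in eIF3d and 11 in eIF3g (interval 5.49 to 19.7 in each). It was the weakest of the 10 genes with 22 summed reads, and its cluster from 131451858 to 131451882 on hg19 chromosome 9, plus strand, was the 1 cluster position among them annotated at a start codon.

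Among the histones, H1FX, a linker histone that binds the DNA between nucleosomes, had the most reads of the 10 genes. It had 111 reads in eIF3a (interval 91.3 to 134), 87 in eIF3d (69.7 to 107), 46 in eIF3b (33.7 to 61.4) and 36 in eIF3g (25.2 to 49.8). The eIF3a and eIF3d intervals lay above those of eIF3b and eIF3g without overlap. With 280 summed reads H1FX was 60th of 479 genes, and its cluster fell at rank 23 of 375 in eIF3a and 102 of 401 in eIF3g. Its clusters were also the longest, 49 nt in eIF3d (129035020 to 129035068 on hg19 chromosome 3, minus strand), 42 in eIF3b, 33 in eIF3a and 31 in eIF3g. The eIF3a, eIF3b and eIF3d clusters shared the downstream limit and differed upstream.

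H2AFX encodes H2A.X, the histone that is phosphorylated beside DNA breaks. It had 40 reads in eIF3a (interval 28.6 to 54.5) and 47 in eIF3d (34.5 to 62.5), in a cluster with the same limits in both lists, from 118966145 to 118966170 on hg19 chromosome 11, minus strand. The intervals overlapped widely. Of the 36 genes listed for eIF3a and eIF3d alone, H2AFX had the most reads, 87 against a median of 32.5. Apart from BRD2, the other genes ranked lower among genes with the same lists. Among the 161 genes listed for every subunit (median 143), H1FX was at rank 45, SMARCA5 98, CBX3 99 and HDAC2 104. Of the 25 listed for eIF3d and eIF3g alone (median 29), KDM5C was at rank 11 and SET at 23. SMARCA5, CBX3, HDAC2, SET and H3F3B had fewer summed reads than the median of their group. H3F3B, a gene for the replacement histone H3.3, had 27 reads in eIF3g (interval 17.8 to 39.3), 15 in eIF3a (8.4 to 24.7) and 10 in eIF3d (4.8 to 18.4), between 73775792 and 73775821 on hg19 chromosome 17, minus strand. Here eIF3g had the highest number, not scaled for depth, and its interval overlapped narrowly with that of eIF3d. By rank the cluster was 153 of 401 in eIF3g, 240 of 375 in eIF3a and 367 of 403 in eIF3d. As a share of clustered reads H3F3B was highest in eIF3a, with 0.0991%, against 0.0433% in eIF3g and 0.0414% in eIF3d. Noncoding RNA holds a large part of the eIF3g total. Without noncoding RNA and EIF3A the totals were 23192 in eIF3g, 13507 in eIF3a and 15246 in eIF3d. By these the eIF3g share was slightly above that of eIF3a, so which subunit is highest depends on the total.

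**Figure D2:**
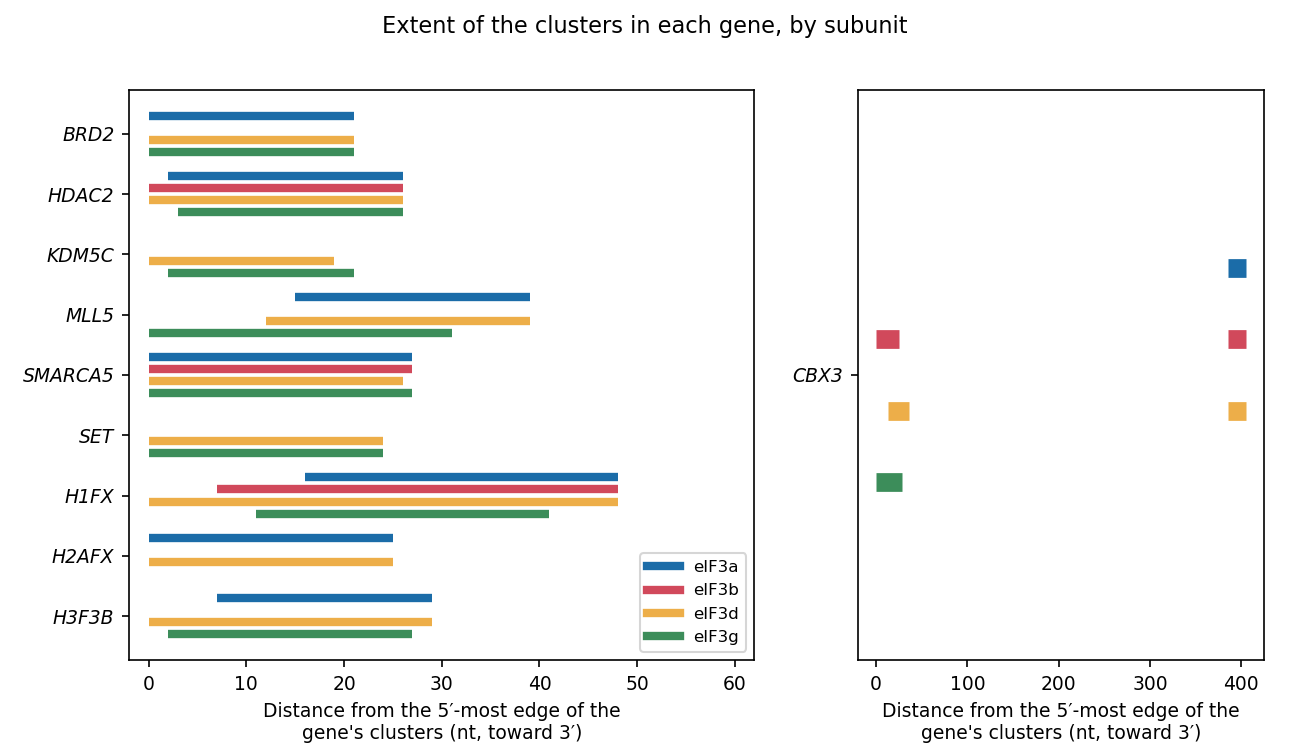
Extent of each cluster along the gene, in nt from the 5′-most edge of that gene's clusters, with 1 bar per cluster coloured by subunit; CBX3 has its own panel and axis because its 2 loci are 349 nt apart. The BRD2, SET and H2AFX clusters have equal limits in every list that holds them, and those of MLL5 and H1FX are offset.

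Of the 11 loci of these genes, 4 had identical limits in every subunit that listed them: BRD2, the downstream CBX3 locus, H2AFX and SET. In the table as a whole, 41% of the 439 loci of 2 or more subunits did. None of these genes' loci listed for all 4 subunits (HDAC2, SMARCA5 and H1FX) had equal limits in every list. The start coordinate was shared in HDAC2 and SMARCA5. The share with equal limits was not computed for the table's 173 loci of all 4 subunits, and the 41% includes loci of fewer subunits.

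The histone genes were set beside the replication-dependent histones, taken as the 11 genes of the table whose names begin with HIST. All 9 clusters of H1FX, H2AFX and H3F3B were in 5′ UTRs. Of the 33 HIST clusters, 14 were annotated at a start codon, 12 in coding exons, 4 in an intron and 3 in a 5′ UTR, the last from 1 gene. By gene, 9 of the 11 HIST genes had clusters at the start codon or in coding exons. This difference was not tested, since both groups were drawn with earlier results of the table known and the clusters of a gene are not independent.

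Read numbers, not scaled for depth, were then compared between subunits within each gene. Among the 8 genes listed for eIF3a, 5 had more reads there than in each other list (BRD2, HDAC2, MLL5, SMARCA5 and H1FX), where 28.4% of the table's eIF3a genes did. CBX3, summed over its loci, and H2AFX had the most in eIF3d, where 41% of its genes did, KDM5C and H3F3B in eIF3g, where 43.6% did, and none in eIF3b, where 26.9% did. SET was equal in both of its lists.

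On the scale of log2(reads + 1), not scaled for depth, the median difference of eIF3d from eIF3a was -0.32 over 8 genes, and 0.14 over the 268 genes of the table listed for both. From eIF3a to eIF3g it was -0.81 over 7 genes, against 0.00 over 255 genes. From eIF3a to eIF3b it was -0.64 over 4 genes, against -0.28 over 209 genes, and from eIF3d to eIF3g it was -0.43 over 9 genes, against 0.00 over 261. The first 3 differences share the eIF3a list, so a high eIF3a number lowers all of them.

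Single genes were spread on both sides. MLL5 had the lowest log2 difference of eIF3g from eIF3a, -1.96, at percentile 3.73 of the genes listed for both. It rests on 9 reads in eIF3g against 38 in eIF3a, near the 8 reads that are the fewest of any cluster. H1FX followed with -1.60 at percentile 7.65. MLL5 also lay low in eIF3d over eIF3a, with -1.04 at percentile 7.65. CBX3, summed over its 2 loci, had 1.12 in eIF3d over eIF3a and 1.04 in eIF3b over eIF3a. These sums include upstream reads at a locus where eIF3a had no cluster. At the downstream locus, the one listed for all 3 of these subunits, the difference from eIF3a was 0.58 in eIF3d (26 against 17 reads) and -1.0 in eIF3b (8 against 17), so the direction in eIF3b turned. In eIF3g over eIF3d, KDM5C had 1.42 at percentile 89.7 and H3F3B 1.35 at percentile 88.7, both with 8 to 10 reads in the lower list. Scaling by the clustered reads, of which noncoding RNA in eIF3g and EIF3A in eIF3b and eIF3d hold a large part, moved the median of eIF3g from eIF3a to -2.85 and that of eIF3g from eIF3d to -1.80. It shifts every gene of a pair alike, and the medians over all genes of the table moved with them, to -2.04 and -1.37.

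**Figure D3:**
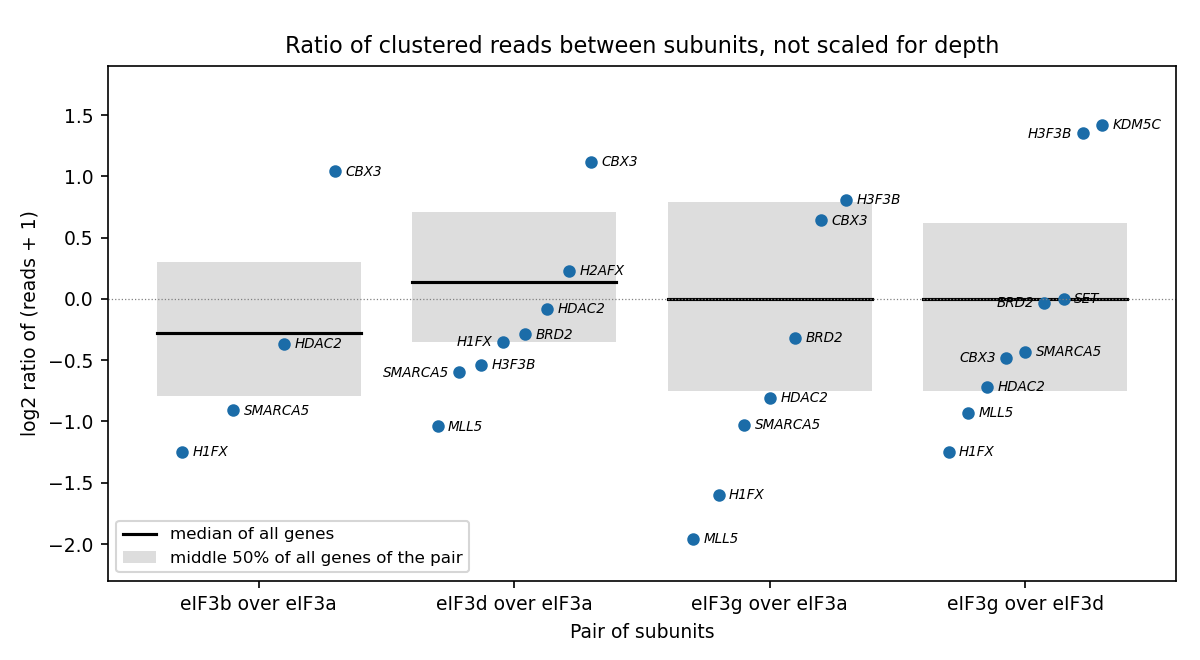
Log2 ratio of (reads + 1) between pairs of subunits, with each gene as a point, the middle 50% of all genes listed for both subunits as a grey bar and their median as a black line. In eIF3g over eIF3a, MLL5 at -1.96 and H1FX at -1.60 lie lowest, and the CBX3 points are sums over 2 loci of which eIF3a lists 1, so that at this locus alone eIF3b over eIF3a is -1.0.

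T-to-C conversions were near 1 per read in 3 of the subunits. Over the clusters of the 10 genes, conversions per read had a median of 0.983 in eIF3a (0.824 to 1.08), 1.00 in eIF3b (0.808 to 1.21) and 0.889 in eIF3g (0.789 to 1.18). The medians over all clusters were 1.02, 1.05 and 1.02. SMARCA5 was the highest of the 10 genes in eIF3b with 1.21 (percentile 79.2 of all clusters) and in eIF3g with 1.18 (percentile 72.9). In eIF3a it had 1.00 (percentile 42.1). HDAC2 was the lowest in each of these 3 subunits, with 0.824 (percentile 17.7 of all eIF3a clusters), 0.808 (percentile 15.9 in eIF3b) and 0.789.

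In eIF3d the 11 clusters had a median of 0.20 conversions per read, from 0.0833 in BRD2 to 0.50 in KDM5C, and the median of all eIF3d clusters was 0.182. All 8 genes listed with eIF3a, all 4 listed with eIF3b and all 9 listed with eIF3g had fewer conversions per read in eIF3d. The same held for 100% of the 268 genes of the table shared with eIF3a, 99% of the 209 shared with eIF3b and 98.5% of the 261 shared with eIF3g, so the direction is that of the whole eIF3d list. BRD2 had 4 conversions in 48 reads in eIF3d, against 57 in 59 reads in eIF3a. KDM5C had 4 in 8 reads, at percentile 95.8 of eIF3d clusters, and 23 in 23 reads in eIF3g. H1FX had 13 in 87 reads in eIF3d and 114 in 111 reads in eIF3a. What the table counts as a conversion in eIF3d is not stated.

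**Figure D4:**
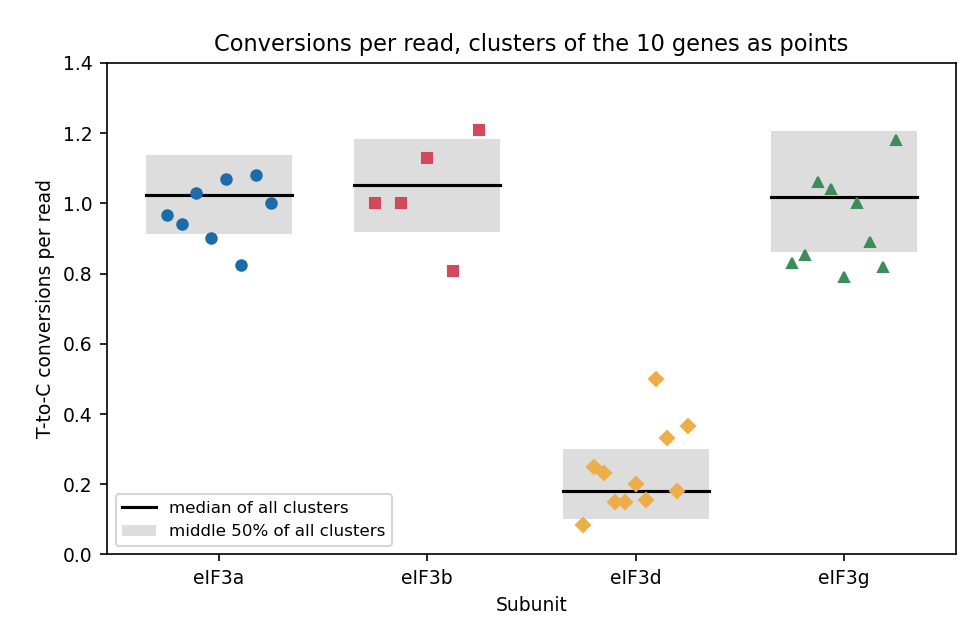
T-to-C conversions per read in each cluster of the 10 genes (points) by subunit, with the middle 50% of all clusters of that subunit as a grey bar and their median as a black line. The points lie between 0.789 and 1.21 in eIF3a, eIF3b and eIF3g and between 0.0833 and 0.50 in eIF3d.

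Related genes were counted in 12 families of chromatin proteins and histones with 94 genes in all. Of the 84 genes that are not among the 10, 4 had a cluster, and 2.21% of 20056 RefSeq protein-coding genes did. In the BET, HP1, class I deacetylase, KDM5, MLL, ISWI and SWI/SNF ATPase, and replacement and variant histone families, no other gene had a cluster. Each of the first 6 families thus had 1 listed gene (of 3 to 7). None of 13 Polycomb genes and none of 13 NuRD and CHD genes had a cluster. At the share over all protein-coding genes, lists this short would mostly hold no gene, so these zeros and the single genes per family say nothing about the families. The expression of these genes in the cells was not measured, and absence from the table does not show absence of crosslinking.

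The 4 further genes were MORF4L2, ANP32E, RUVBL1 and CREBBP. MORF4L2, a subunit of histone acetyltransferase complexes, had 225 reads in eIF3d, 183 in eIF3b, 157 in eIF3a and 117 in eIF3g, all in its 5′ UTR and more than H1FX in each list. ANP32E, a chaperone of histone H2A.Z, had 33 reads in eIF3a, 28 in eIF3d, 25 in eIF3b and 19 in eIF3g in a 5′ UTR cluster with the same limits in all 4 lists. RUVBL1, an ATPase of remodelling complexes, had 19 reads in eIF3d and 28 in eIF3g in its 5′ UTR, with only 0.143 conversions per read in eIF3g. CREBBP, a histone acetyltransferase, had 20 reads in eIF3a, 19 in eIF3b and 33 in eIF3g in an intron, with 2.0 conversions per read in each.

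The genes closest in read numbers over the 4 subunits were looked up for the 3 strongest of the genes listed for all 4, by Euclidean distance of log2(reads + 1). Those of H1FX were C6orf62, with 102 reads in eIF3a, 79 in eIF3d, 60 in eIF3b and 49 in eIF3g (distance 0.60), and PMVK, a kinase of the mevalonate pathway (0.94). SMARCA5 was closest to PSMD14, a deubiquitinating subunit of the proteasome (0.43), and PAF1, a subunit of an RNA polymerase II elongation complex (0.47). CBX3 was closest to DCAF12 and PRKD2 (0.91 each). All 6 genes had only 5′ UTR clusters, and a distance over 4 pooled values describes them and carries no test.

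The first 50 transcribed bases were taken by the RefSeq start sites of GRCh38.p14, matched by symbol for all 10 genes. They held between 3 T in MLL5 and 16 in H3F3B, with a median of 8.3. Values for BRD2 (4 starts) and SET (5 starts) are means over their starts. The start used in the cells was not measured. The 378 matched protein-coding genes of the table had a median of 10.0 and 15843 protein-coding genes had 9.0. H2AFX had 15 T, HDAC2 12, and CBX3 and H1FX 4 each. The GC content of these bases had a median of 65.8% in the 10 genes, 65.0% in the table and 64.0% in all. T is where 4-thiouridine can enter the RNA. These bases are not placed relative to the clusters, which are in hg19 positions.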

How the data were processed

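The 12 libraries are PAR-CLIP (crosslinking of 4-thiouridine-labelled RNA) libraries of eIF3a, eIF3b, eIF3d and eIF3g from 293T cells. The deposited table holds read counts per cluster that the authors left without normalization, per the file headers, and numbers of T-to-C conversions, with no replicate column. Per the submitters' processing notes, hg19 was the build, and cutadapt, Bowtie and bedtools were used. Not given in the sources used here are the way clusters were called, replicates pooled and the barcode used, and the number (0 or 1) from which positions run. Positions are printed as tabulated. Nothing says that replicates came from separate cultures.

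Names that differed only in case were joined, which left 479 genes from 480 names. Reads were summed per gene. Ranks run from the most reads, and percentiles give tied values their mean place among the subunit's genes or clusters. A locus is a chain of clusters on 1 strand, each sharing 1 nt or more with the next. Ratios used a pseudocount of 1. Poisson intervals were computed with SciPy 1.17.1, and the code was tested on simulated data. Older symbols were matched to RefSeq (GRCh38.p14).

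The genes, families and comparisons were chosen with earlier results of these data known. Named genes were the 10 genes, family members with a cluster, and the 2 nearest genes of each of 3; HNRNPA2B1 was named after its values were seen. A count test per library, replicates left out and the base composition of clusters, which needs hg19 sequence, were not analysed here. Alternatives were a limit at the median reads, other overlaps and regions, scalings and a pseudocount of 0.1.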

Additional observations from a re-analysis of the deposited data

How the results depend on the processing

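Over 19 results, 36 of 43 alternatives stayed within 1.5 times of a count, or within the 95% binomial interval of a median or share. For medians of 8 or fewer values, this interval was their whole range. That held for the eIF3a and eIF3b values and for all ratios over eIF3a, so staying within it is a weak check there. The median of eIF3d over eIF3a went from -0.32 to -0.99 when scaled by clustered reads and still counts as unchanged, since the genes ran from -1.04 to 1.12. Without clusters under their subunit's median reads, the number of genes listed for all 4 subunits went from 4 to 2 and the number listed for eIF3d from 10 to 6, because fewer clusters are counted; the second was chosen after seeing the data. Scaled by clustered reads, the median log2 ratio of eIF3g over eIF3a went from -0.81 to -2.85 and that of eIF3g over eIF3d from -0.43 to -1.80, and without EIF3A and noncoding RNA in the total the latter was -1.04. With the strongest cluster in place of summed reads, chosen after seeing the data, eIF3g over eIF3d was -0.03. At the downstream CBX3 locus alone, also chosen after seeing the data, the log2 ratio of eIF3b over eIF3a turned from 1.04 to -1.0 and that of eIF3d over eIF3a went from 1.12 to 0.58, because the upstream reads are left out. No paired analysis was possible because the table has no replicate column, and for the same reason no replicate could be left out. With 8 to 111 reads per cluster and no depth per library, differences of a few reads were not detectable.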
